A study of Mus musculus with 24 samples.

Results

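H3K4me3 was examined at 7 genes of striatal projection neurons: Drd1a, Drd2, Adora2a, Tac1, Ppp1r1b, Rgs9 and Gng7. The genes were listed by name, and a gene's region was any counted region of the series that overlapped an annotated transcription start site (TSS) of the gene. All 7 genes had a region, each had exactly 1, and none of the regions held a TSS of another gene. These 7 regions were compared among the 17993 counted regions, of which 13404 overlapped a TSS. The region list was made from peaks that the authors called, so a gene enters it only through a peak.

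Striatal projection neurons are the inhibitory output neurons of the striatum, and they respond to dopamine, glutamate and adenosine. In the direct pathway they carry the dopamine D1 receptor (Drd1a, the older symbol of Drd1) and make substance P from Tac1, and in the indirect pathway they carry the dopamine D2 receptor (Drd2) and the adenosine receptor of the A2a type (Adora2a). Both kinds use Ppp1r1b (DARPP-32, a phosphatase inhibitor switched by cAMP signalling), Rgs9 (a regulator that shortens G protein signals) and Gng7 (the gamma subunit paired with the olfactory-type stimulatory G protein). H3K4me3 is a histone mark found at the start of active and poised genes, so its count at a TSS describes the promoter and not the amount of RNA.

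The tissue was not striatum: per the labels and the study's methods, all libraries came from cerebral cortex of C57BL/6 mice carrying histone H2B tagged with FLAG under the CAG promoter at Rosa26. In the Rosa H2B-FLAG line (labelled Rosa CAG-H2B-FLAG), the stop cassette had been removed by Vasa-Cre, a germline driver, and nearly all cells carried the tag. In the Camk2a H2B-FLAG line (labelled Rosa26 CAG-floxed-pA-H2B-FLAG/ CaMKCreERT2), the tag was induced in Camk2a-positive neurons by tamoxifen, 1 mg/day for 5 days from 8 weeks of age, and tissue was taken later in adulthood. H3K4me3 was pulled down either directly (single ChIP-Seq) or from chromatin first captured through the FLAG tag (tandem ChIP-Seq, tChIP-Seq). There were 3 libraries in each of the 4 groups, and a lysate held tissue of 2 animals. Neither source gives an age for the Rosa H2B-FLAG animals. The labels separate the libraries of a group only by a replicate number, so p-values measure the spread between these libraries. Total counts were 6316125 to 8644574 in Rosa single ChIP-Seq, 4063200 to 4233144 in Camk2a single ChIP-Seq, 1457261 to 1828371 in Rosa tChIP-Seq and 2709729 to 3049130 in Camk2a tChIP-Seq.

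Promoters of genes on which the comparisons turned (Adora2a, Tac1, Ppp1r1b and Gng7) are shown as the 200 bases before the first TSS, written 5′ to 3′ on the gene's own strand and read from the mm9 genome. Capitals mark matches to the motifs searched on both strands, namely the GC box, the CCAAT box and the core of the cAMP response element. The Adora2a and Ppp1r1b windows held no match.
Adora2a, chr10:74779488-74779687, plus strand: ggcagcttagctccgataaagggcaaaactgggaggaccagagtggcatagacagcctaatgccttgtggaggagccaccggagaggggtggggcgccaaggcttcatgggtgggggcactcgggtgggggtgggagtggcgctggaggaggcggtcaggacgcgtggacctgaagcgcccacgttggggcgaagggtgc
Tac1, chr6:7504871-7505070, plus strand: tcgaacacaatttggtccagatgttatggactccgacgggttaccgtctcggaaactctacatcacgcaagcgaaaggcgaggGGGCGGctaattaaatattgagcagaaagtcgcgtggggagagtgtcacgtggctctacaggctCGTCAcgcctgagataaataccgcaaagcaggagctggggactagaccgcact
Ppp1r1b, chr11:98209518-98209717, plus strand: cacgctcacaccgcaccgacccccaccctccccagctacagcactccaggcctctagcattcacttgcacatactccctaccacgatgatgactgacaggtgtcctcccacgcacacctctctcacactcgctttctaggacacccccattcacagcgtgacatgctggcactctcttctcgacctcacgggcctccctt
Gng7, chr10:80477691-80477890, minus strand: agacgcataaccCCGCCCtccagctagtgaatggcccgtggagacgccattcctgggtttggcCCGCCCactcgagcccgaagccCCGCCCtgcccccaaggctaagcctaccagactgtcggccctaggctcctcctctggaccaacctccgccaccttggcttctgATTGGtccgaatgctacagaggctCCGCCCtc

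The Tac1 window held 16 CpG dinucleotides, the Gng7 window 12, the Adora2a window 11 and the Ppp1r1b window 9, against a median of 14 over 12389 promoter windows of the same length. A GC box (GGGCGG) stood in the windows of Gng7, Rgs9 and Tac1, among others, and in 59.0% of all windows. A CCAAT box (CCAAT) stood in those of Gng7 and Rgs9 and in 31.1% of all windows. Tac1 alone among the 7 held the cAMP response element core TGACG, at 24.3% of all windows, and the full palindrome TGACGTCA, which contains that core, was in none of the 7 and in 2.7% of all windows. The E-box CAGCTG was in the Rgs9 window and in 8.8% of all windows. No window of the 7 held TATAAA (4.0% of all windows) or the Egr1 motif GCGTGGGCG (1.0%). These matches are letters in a fixed window and were not tested against the counts.

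The first question was how the mark at these genes differed between chromatin captured through a tag in Camk2a-positive neurons and through a tag in nearly all cortical cells. In tChIP-Seq, Adora2a was the gene of the 7 with the largest difference, 3.19-fold lower in the Camk2a H2B-FLAG line, and Ppp1r1b was 1.32-fold higher. The other 5 regions were not called at an adjusted p under 0.01 in edgeR. Thus 1 of 7 was higher, against 17.0% of all regions, and 1 of 7 was lower, against 14.6% of all regions, which are shares close to the background. The median log2 fold change of the 7 regions was 0.32, and it was 0.00 over all 17993 regions. The median of the 7 is the value of Tac1, the region with the fewest reads, for which no direction is given below. Because the tissue was processed whole, fewer cells that carry the mark and less mark per cell cannot be told apart.

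**Figure D1:**
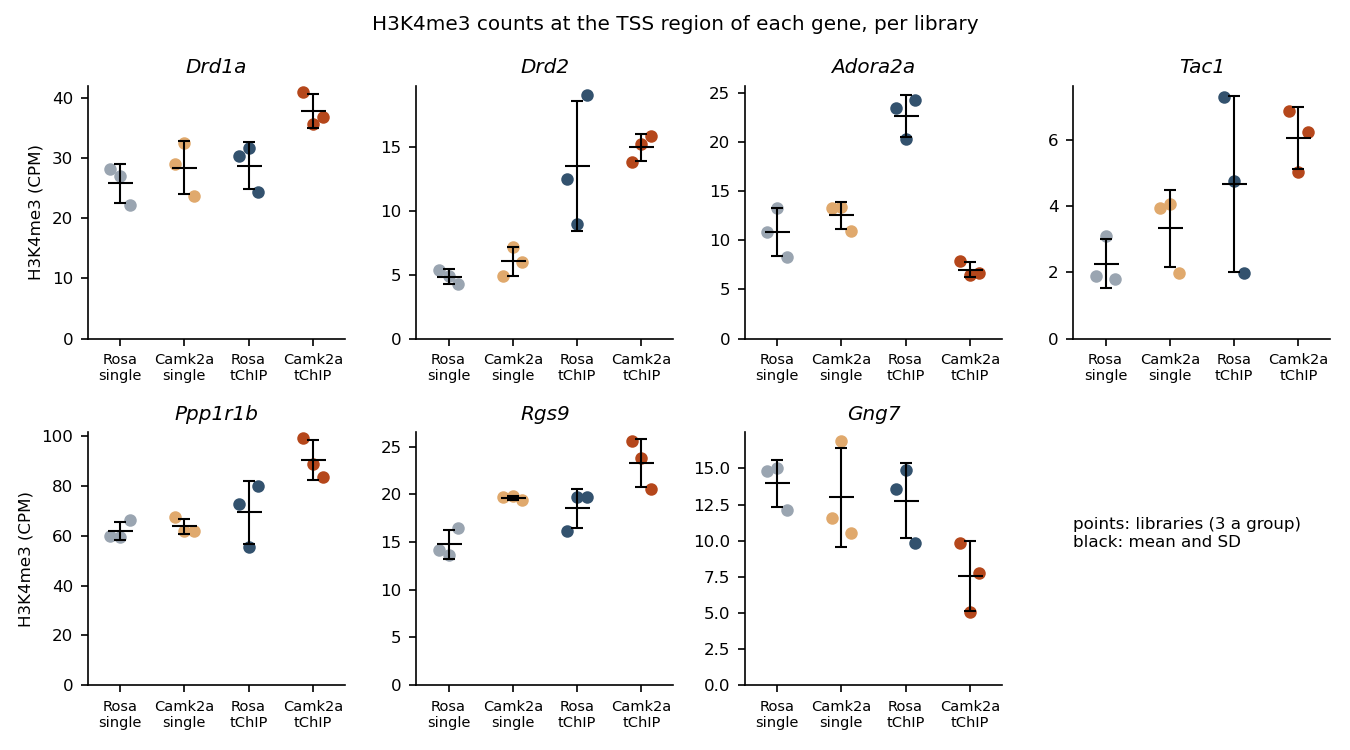
H3K4me3 at the TSS region of each of the 7 genes, in CPM (counts scaled to a common library size with TMM factors, vertical axis) in each library of the 4 groups (horizontal axis). Points are libraries, 3 a group, and black marks are the mean and SD; in Adora2a the 3 Rosa tChIP-Seq libraries sit at 20.3 CPM or above and the 3 Camk2a tChIP-Seq libraries at 7.87 CPM or below.

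Among the receptors, the Adora2a region (chr10:74779602-74780714, 1113 bp, plus strand) begins 86 bp before the TSS and covers the first 1026 bp of the gene. Its level in CPM, the count scaled to a common library size, was 23.5, 20.3 and 24.3 in the Rosa tChIP-Seq libraries and 7.87, 6.50 and 6.63 CPM in the Camk2a tChIP-Seq libraries. The groups were far from overlapping, and the log2 fold change in edgeR was -1.68 (SE 0.219, adjusted p = 4.63e-10). The value stayed between -1.78 and -1.63 under all 12 alternatives that could be computed. In single ChIP-Seq the same region was at 10.9, 13.3 and 8.34 CPM in the Rosa line and at 13.3, 13.4 and 11.0 CPM in the Camk2a line. Those groups overlapped, and the log2 fold change of 0.18 was not called (95% interval -0.13 to 0.49, edgeR adjusted p = 0.530).

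The Drd1a region (chr13:54148753-54151309, 2557 bp, minus strand) holds the gene's only annotated TSS. It was at 30.3, 31.6 and 24.3 CPM in Rosa tChIP-Seq and at 41.0, 35.7 and 36.8 CPM in Camk2a tChIP-Seq. All 3 Camk2a libraries lay above the 3 Rosa libraries, but the log2 fold change of 0.40 missed the threshold (95% interval 0.12 to 0.68, edgeR adjusted p = 0.0186). In single ChIP-Seq the lines overlapped, at 28.2, 27.0 and 22.1 CPM against 29.0, 32.5 and 23.7 CPM.

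The Drd2 region (chr9:49148236-49149043, 808 bp, plus strand) gave low counts, between 15 and 43 reads a library. In tChIP-Seq it was at 12.5, 8.95 and 19.0 CPM in the Rosa line and at 13.8, 15.2 and 15.8 CPM in the Camk2a line. The Camk2a libraries fell inside the range of the Rosa libraries, with a log2 fold change of 0.17 (95% interval -0.27 to 0.61, edgeR adjusted p = 0.583). Leaving out the second Rosa tChIP-Seq library moved that value to -0.04, so no direction is given for it.

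Tac1, the precursor gene of substance P and neurokinin A, had the smallest region (chr6:7504903-7505457, 555 bp, plus strand) and the lowest counts, between 3 and 26 reads a library. It was at 7.30, 4.77 and 1.97 CPM in Rosa tChIP-Seq and at 6.89, 5.05 and 6.26 CPM in Camk2a tChIP-Seq. The third Rosa library rested on 3 reads, and the libraries of the lines overlapped. The log2 fold change of 0.32 was not called (95% interval -0.38 to 1.03, edgeR adjusted p = 0.505). It was 0.82 without the first Rosa tChIP-Seq library and 0.00 without the third, so no direction is given for it.

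Ppp1r1b had the largest and most deeply counted region (chr11:98208757-98211721, 2965 bp, plus strand), which holds 2 of the gene's 6 annotated TSSs. In tChIP-Seq it was at 73.0, 55.5 and 80.0 CPM in the Rosa line and at 99.4, 89.1 and 83.6 CPM in the Camk2a line. All 3 Camk2a libraries lay above the Rosa libraries, and the log2 fold change was 0.40 (SE 0.0967, edgeR adjusted p = 4.24e-04). Without the second Rosa library, the lowest of the 3, the log2 fold change was 0.26 and the call was lost (adjusted p = 0.0378). Single ChIP-Seq gave 60.1, 59.6 and 66.3 CPM in the Rosa line and 67.4, 62.0 and 62.1 CPM in the Camk2a line, which overlapped (log2 fold change 0.05, 95% interval -0.09 to 0.18).

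The Rgs9 region (chr11:109158402-109159765, 1364 bp, minus strand) holds 4 of 6 annotated TSSs. It was at 16.2, 19.7 and 19.7 CPM in Rosa tChIP-Seq and at 25.6, 23.8 and 20.6 CPM in Camk2a tChIP-Seq, with the groups just apart. The log2 fold change of 0.36 was not called (95% interval 0.00 to 0.71, edgeR adjusted p = 0.105). Rgs9 was also the only one of the 7 whose lines did not overlap in single ChIP-Seq, at 14.2, 13.6 and 16.5 CPM against 19.7, 19.8 and 19.4 CPM, while 25.0% of all regions were apart in this sense. Its log2 fold change there was 0.42 (SE 0.128, edgeR adjusted p = 0.0269) and it was not called.

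The Gng7 region (chr10:80476670-80477867, 1198 bp, minus strand) holds 3 of 6 annotated TSSs. Its level was 13.6, 14.9 and 9.84 CPM in Rosa tChIP-Seq and 9.84, 5.05 and 7.74 CPM in Camk2a tChIP-Seq, so that the lowest Rosa and the highest Camk2a library met. The log2 fold change of -0.75 lay short of the threshold (95% interval -1.27 to -0.23, edgeR adjusted p = 0.0149). The region was called lower under 4 of 12 alternatives, among them the fit without the first Camk2a tChIP-Seq library (log2 fold change -1.01, adjusted p = 0.00324) and the fit without the third Rosa library (adjusted p = 0.00811). It was not called in the other 8, DESeq2 included, and the smallest value was -0.54 (adjusted p = 0.115), without the second Camk2a tChIP-Seq library. Over the 7 genes, 4 regions had tChIP-Seq groups that did not overlap, and 48.4% of all regions did the same.

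**Figure D2:**
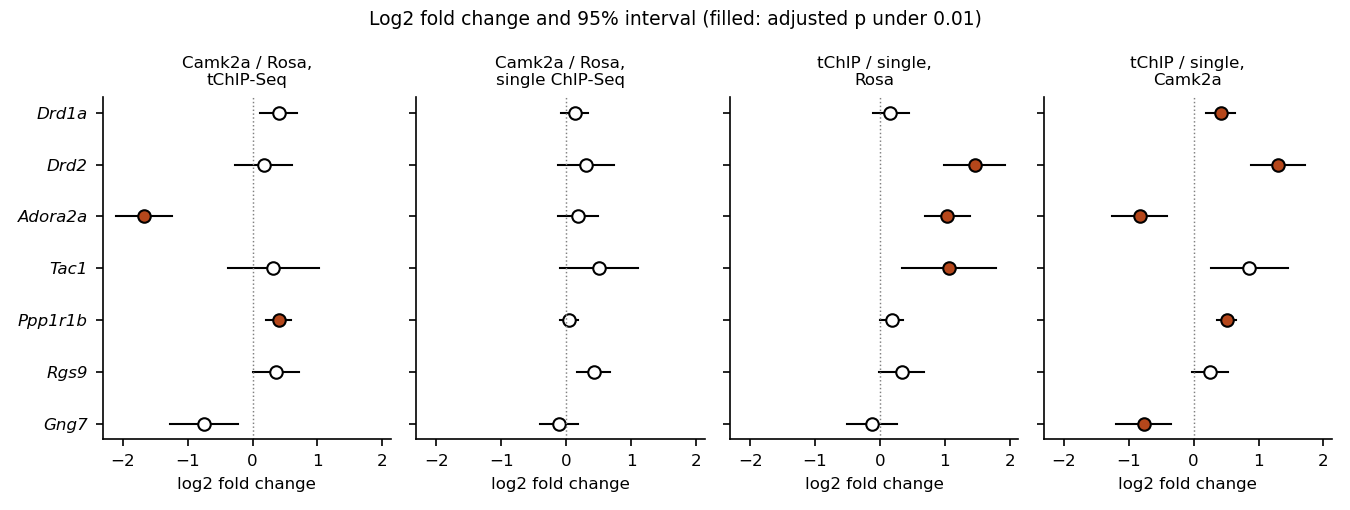
Log2 fold change (horizontal axis) of the 7 regions with its 95% interval in 4 comparisons of 3 libraries against 3, fitted in edgeR, where filled points have an adjusted p under 0.01. Adora2a lies at -1.68 between the lines in tChIP-Seq and at 0.18 in single ChIP-Seq, and it is the gene whose tChIP-Seq to single ChIP-Seq difference has opposite signs in the 2 lines.

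Single ChIP-Seq served as the same line comparison without selection by the tag. None of the 7 regions was called in edgeR in either direction, where 0.928% of all regions were higher and 1.22% were lower. At an unadjusted p under 0.05 there was 1, Rgs9, and the DESeq2 Wald test called 0. The median log2 fold change of the 7 was 0.18. Whether the line difference itself depended on the kind of ChIP-Seq was tested as an interaction over the 12 libraries. Adora2a was called lower, with an interaction of -1.87 on the log2 scale (SE 0.276, edgeR adjusted p = 9.36e-10), a 3.64-fold difference between the effects of line. No region of the 7 was called higher. The background was 13.2% of all regions lower and 13.7% higher. The interaction of Ppp1r1b was 0.34 (95% interval 0.11 to 0.57, adjusted p = 0.0130) and that of Gng7 was -0.65 (95% interval -1.24 to -0.06, adjusted p = 0.0800), and neither was called. The interaction of Ppp1r1b was called without the third Rosa tChIP-Seq library (0.44, adjusted p = 0.00331), without the first Camk2a single ChIP-Seq library (0.38, adjusted p = 0.00868) and without the third Camk2a tChIP-Seq library (0.40, adjusted p = 0.00525). Without the second Rosa tChIP-Seq library it was 0.21 (adjusted p = 0.21). For Rgs9 the interaction was -0.07 with an interval of -0.51 to 0.37.

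The next question was what selection by the tag changed within each line. The paper reported biases of tChIP-Seq against single ChIP-Seq in the Rosa line. It therefore based its quantitative comparisons mainly on tChIP-Seq of the 2 lines. In the Rosa H2B-FLAG line, where nearly all cells carry the tag, 3 of 7 regions were higher after tChIP-Seq, with single ChIP-Seq as the reference, against 24.7% of all regions, and none was lower, against 22.5%. The 3 were Drd2, Adora2a and Tac1. Drd2 was 2.74-fold higher (log2 fold change 1.46, SE 0.240, edgeR adjusted p = 9.24e-09), since single ChIP-Seq gave 5.36, 4.91 and 4.25 CPM, all below the tChIP-Seq libraries. Adora2a was 2.06-fold higher (log2 fold change 1.04, SE 0.175, adjusted p = 1.69e-08) with no overlap of libraries.

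Tac1 was 2.09-fold higher by the fit (log2 fold change 1.06, SE 0.370, edgeR adjusted p = 0.00873), although its libraries overlapped, with 1.88, 3.11 and 1.80 CPM in Rosa single ChIP-Seq. The Tac1 call was lost under 7 of 12 alternatives, at an adjusted p of 0.0425 in DESeq2 and of 0.357 without the first Rosa tChIP-Seq library, where the log2 fold change was 0.56. It was also lost without the second Rosa tChIP-Seq library (adjusted p = 0.0287) and without the first or the third Rosa single ChIP-Seq library (adjusted p = 0.0303 for each). Ppp1r1b had a log2 fold change of 0.18 (95% interval 0.00 to 0.36, adjusted p = 0.0743), which was called without the second Rosa tChIP-Seq library (0.31, adjusted p = 0.00707). It was also called with library totals alone (0.28, edgeR adjusted p = 0.00505). Dropping the lowest 40% of regions by summed count gave a call as well (0.33, adjusted p = 0.00103). By unadjusted p no region of the 7 was under 0.05 in the lower direction, and DESeq2 called 2 higher and 0 lower. The libraries of the 2 kinds did not overlap for 2 of the 7 genes, Drd2 and Adora2a, and for 62.3% of all regions. The median log2 fold change of the 7 was 0.34.

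In the Camk2a H2B-FLAG line, tChIP-Seq chromatin was captured through the tag of Camk2a-positive neurons, and single ChIP-Seq chromatin was that of whole cortex. The paper put the share of labelled cells close to the limit it estimated for the capture from mixed cell lysates. Carry-over of untagged chromatin into tChIP-Seq was not measured here. All 7 genes had groups that did not overlap, and so did 61.6% of all regions. Drd1a, Drd2 and Ppp1r1b were higher in tChIP-Seq, 3 of 7 against 25.3% of all regions, and Adora2a and Gng7 were lower, 2 of 7 against 22.6%. Drd2 was again the gene with the largest increase, 2.46-fold (log2 fold change 1.30, SE 0.212, edgeR adjusted p = 3.1e-08), from 4.92, 7.16 and 5.98 CPM in single ChIP-Seq. Ppp1r1b was 1.43-fold higher (log2 fold change 0.51, SE 0.0763, adjusted p = 1.74e-09) and Drd1a 1.33-fold higher (log2 fold change 0.42, SE 0.116, adjusted p = 0.00114).

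Adora2a was 1.78-fold lower in Camk2a tChIP-Seq, with Camk2a single ChIP-Seq as reference (log2 fold change -0.83, SE 0.217, edgeR adjusted p = 4.74e-04). Gng7 was 1.71-fold lower (log2 fold change -0.77, SE 0.215, adjusted p = 0.00110), with 11.6, 16.9 and 10.5 CPM in single ChIP-Seq. The DESeq2 Wald test called only Drd2 and Ppp1r1b here, with adjusted p of 0.0141 for Adora2a, 0.0271 for Drd1a and 0.0289 for Gng7. The call of Gng7 was also lost without the second Camk2a single ChIP-Seq library (log2 fold change -0.53, adjusted p = 0.0554) and without the second Camk2a tChIP-Seq library (adjusted p = 0.0365), and that of Drd1a without the first Camk2a tChIP-Seq library (adjusted p = 0.0225) or the third single ChIP-Seq library (adjusted p = 0.0306). Tac1, at 3.94, 4.06 and 1.99 CPM in single ChIP-Seq, had a log2 fold change of 0.86 (95% interval 0.26 to 1.46, adjusted p = 0.0105), called without the second Camk2a single ChIP-Seq library (adjusted p = 0.00912), and Rgs9 had 0.25 (95% interval -0.03 to 0.53, adjusted p = 0.115). The 4 comparisons share libraries in pairs, so the values of a gene in them are not independent.

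**Figure D3:**
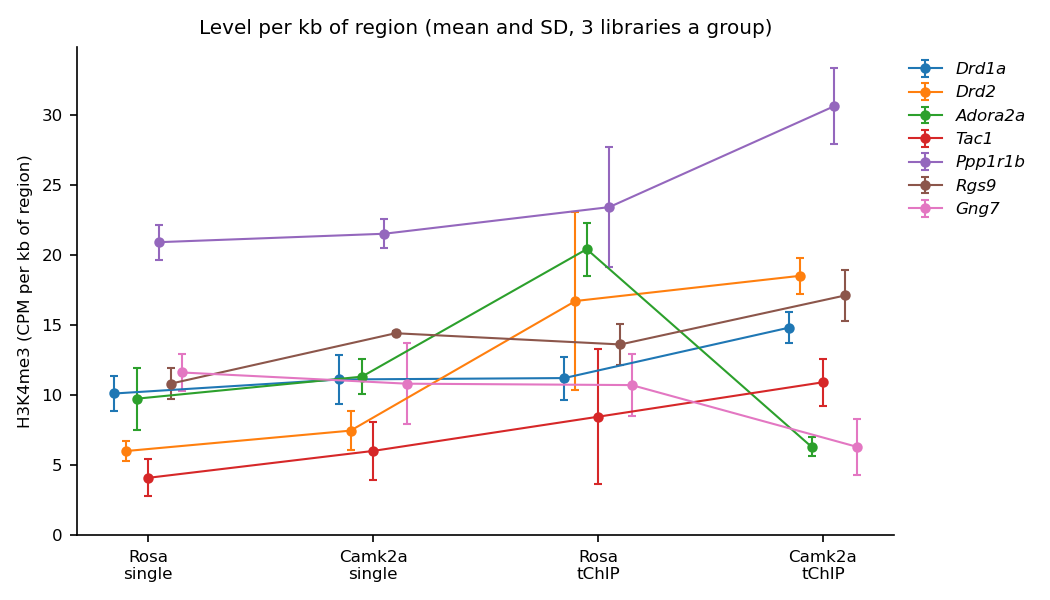
Mean level of each gene's region in CPM per kb of region (vertical axis, bars are SD over 3 libraries) in the 4 groups (horizontal axis), with lines that only join the points of a gene. Ppp1r1b has the highest mean in every group, and Adora2a moves from 20.4 CPM per kb in Rosa tChIP-Seq to 6.29 CPM per kb in Camk2a tChIP-Seq.

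Levels were compared between genes only per kb of region. Ppp1r1b had the highest mean level in all 4 groups, from 20.9 ± 1.25 CPM per kb in Rosa single ChIP-Seq to 30.6 ± 2.70 CPM per kb in Camk2a tChIP-Seq (SD, n = 3). Even so it stood at the 30.4th percentile of regions overlapping a TSS in the former group and at the 55.2nd in the latter. The other 6 regions were weakly marked, and in Rosa single ChIP-Seq they lay between the 1.0 percentile (Tac1) and the 13.9 percentile (Gng7). In that group Gng7, Rgs9, Drd1a and Adora2a followed Ppp1r1b at 11.6, 10.8, 10.1 and 9.73 CPM per kb, and each overlapped its neighbour in the order. Drd2 at 5.99 CPM per kb and Tac1 at 4.08 CPM per kb came last and overlapped each other.

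In Rosa tChIP-Seq the order began with Ppp1r1b at 23.4 ± 4.27, Adora2a at 20.4 ± 1.90 and Drd2 at 16.7 ± 6.32 CPM per kb (SD, n = 3), and every gene overlapped the next. In Camk2a tChIP-Seq the order was Ppp1r1b, Drd2 (18.5 CPM per kb), Rgs9 (17.1), Drd1a (14.8), Tac1 (10.9), Gng7 (6.30) and Adora2a (6.29). There Ppp1r1b was apart from Drd2, Drd1a from Tac1 and Tac1 from Gng7, while Gng7 and Adora2a overlapped. Adora2a thus stood in the second place in Rosa tChIP-Seq, at the 26.7th percentile of TSS regions, and in the last place in Camk2a tChIP-Seq, at the 4.0 percentile.

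The 7 regions differed in sequence composition. Drd2, Adora2a and Tac1 had a high ratio of observed to expected CpG dinucleotides, 0.799, 0.752 and 0.724, which are the 90.1, 83.4 and 78.6 percentiles of TSS regions. Rgs9 (0.518), Ppp1r1b (0.430), Drd1a (0.426) and Gng7 (0.291) lay below the median of 0.605. Drd2, Adora2a and Tac1 were also the 3 shortest regions of the 7, between 555 and 1113 bp against a median of 2060 bp. They were also the 3 regions called higher after tChIP-Seq in the Rosa line. This was seen after the values were known and is a description of 7 genes, and the part of base composition, width or depth in the counts was not tested.

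**Figure D4:**
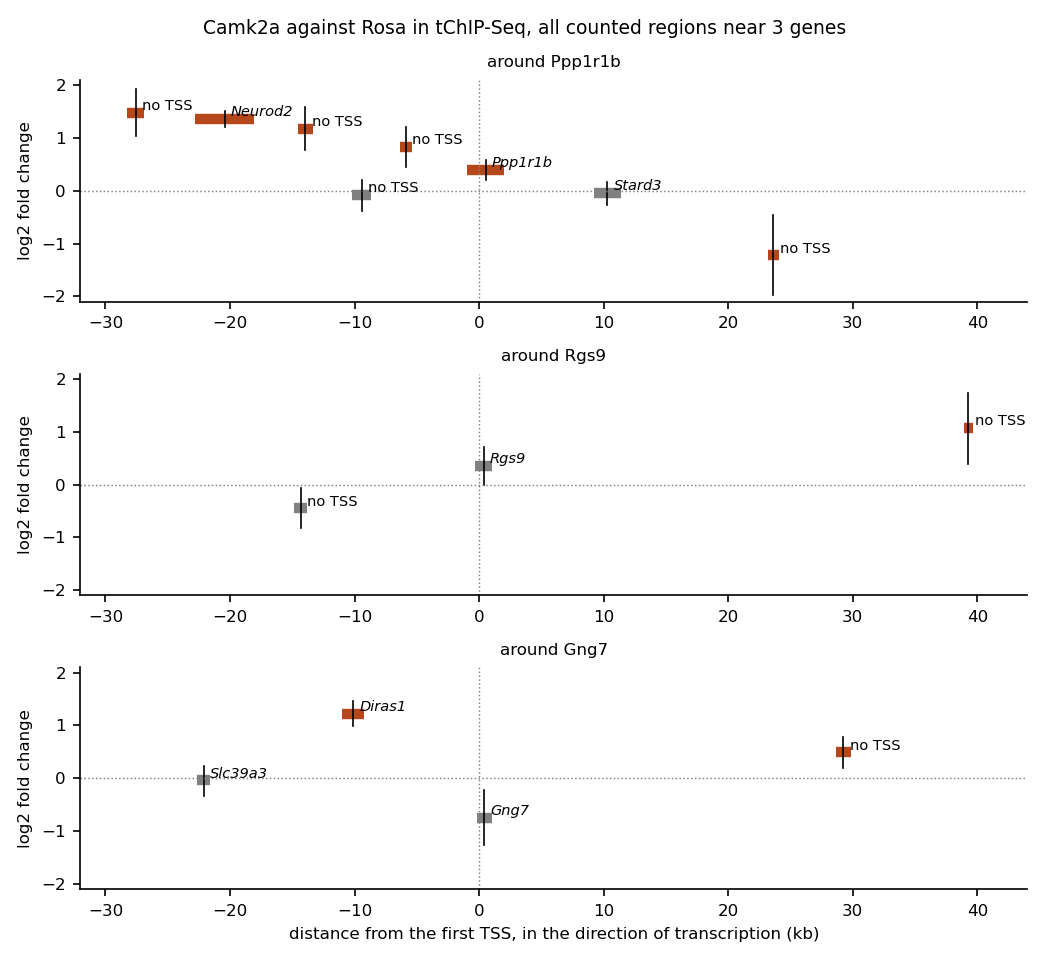
Log2 fold change of the Camk2a against the Rosa line in tChIP-Seq (vertical axis, thin lines are 95% intervals) for every counted region within 30 kb of the first TSS or in the gene span of Ppp1r1b, Rgs9 and Gng7, at its distance from the first TSS (horizontal axis, kb). Thick bars span the regions and are coloured where the adjusted p was under 0.01; 4 regions upstream of Ppp1r1b lie above its own 0.40, and the region inside the Gng7 intron lies at 0.49 while that at the Gng7 TSS lies at -0.75.

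The regions around the 7 genes were listed after the values of the genes had been seen, as all regions within 30 kb of the first TSS or inside the gene span. Ppp1r1b stands in a stretch dense with counted regions. Upstream of it, the region of Neurod2, a transcription factor of cortical excitatory neurons, rose from 69.1 ± 3.41 CPM in Rosa tChIP-Seq to 178 ± 9.10 CPM in Camk2a tChIP-Seq (SD, n = 3; log2 fold change 1.37, edgeR adjusted p = 2.92e-26). Another 3 regions without a TSS rose as well, with log2 fold changes of 1.48 (26925 to 28240 bp before the Ppp1r1b TSS), 1.18 (13344 to 14537 bp) and 0.83 (5410 to 6380 bp). The region 8684 to 10167 bp before the TSS was not called (-0.08, 95% interval -0.38 to 0.21). Downstream, the region at Stard3, which overlaps the end of Ppp1r1b, had -0.04 (95% interval -0.26 to 0.17). A weak region over a Stard3 exon, 23200 to 24067 bp past the Ppp1r1b TSS, was called lower at -1.22 (adjusted p = 0.00696), a call kept in 5 of 11 alternatives and lost without any single library but the first Rosa one, with adjusted p between 0.0109 and 0.0644. The rise at Ppp1r1b itself, 0.40, was smaller than at each of these 4 regions, and this ordering of sizes was not tested.

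A region in a Gng7 intron (chr10:80447824-80449066, 28624 to 29866 bp past the first TSS) went the other way from the Gng7 TSS region. It was at 31.3, 20.9 and 26.2 CPM in Rosa tChIP-Seq and at 36.1, 39.3 and 35.0 CPM in Camk2a tChIP-Seq, without overlap. Its log2 fold change was 0.49 (SE 0.148, edgeR adjusted p = 0.00546). That call was kept in 7 of 12 alternatives and was lost in DESeq2 (adjusted p = 0.0441), without the second (adjusted p = 0.0897) or the third Rosa library (0.0172), and without the second Camk2a library (0.0254). Upstream of Gng7, the region that holds TSSs of Diras1, which encodes a small GTPase, and of Gm16099 rose (log2 fold change 1.22, adjusted p = 7.11e-15). The region of Slc39a3, a zinc transporter gene, lay farther upstream and was not called (-0.04, 95% interval -0.33 to 0.24).

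Within Rgs9, a region that touches an Rgs9 exon (chr11:109119821-109120516, 38927 to 39622 bp past the first TSS) rested on 5 to 9 reads in Rosa tChIP-Seq and on 22 to 26 reads in Camk2a tChIP-Seq. Its log2 fold change was 1.07 (SE 0.340, edgeR adjusted p = 0.00795), and the call was kept in 3 of 11 alternatives. Leaving out a library lost the call for 5 of 6 libraries, all but the first Camk2a one, with adjusted p up to 0.0527 without the second Rosa library. A region without a TSS upstream of Rgs9 had a log2 fold change of -0.45 and was not called (95% interval -0.83 to -0.07, adjusted p = 0.0542). Drd1a had as its only neighbour the region of Sfxn1, a mitochondrial serine carrier, which fell by 0.52 on the log2 scale (adjusted p = 6.20e-04), a call lost without the first Rosa tChIP-Seq library (adjusted p = 0.015) or the first Camk2a one (0.0106). Drd2, Adora2a and Tac1 had no other counted region in these windows.

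**Figure D5:**
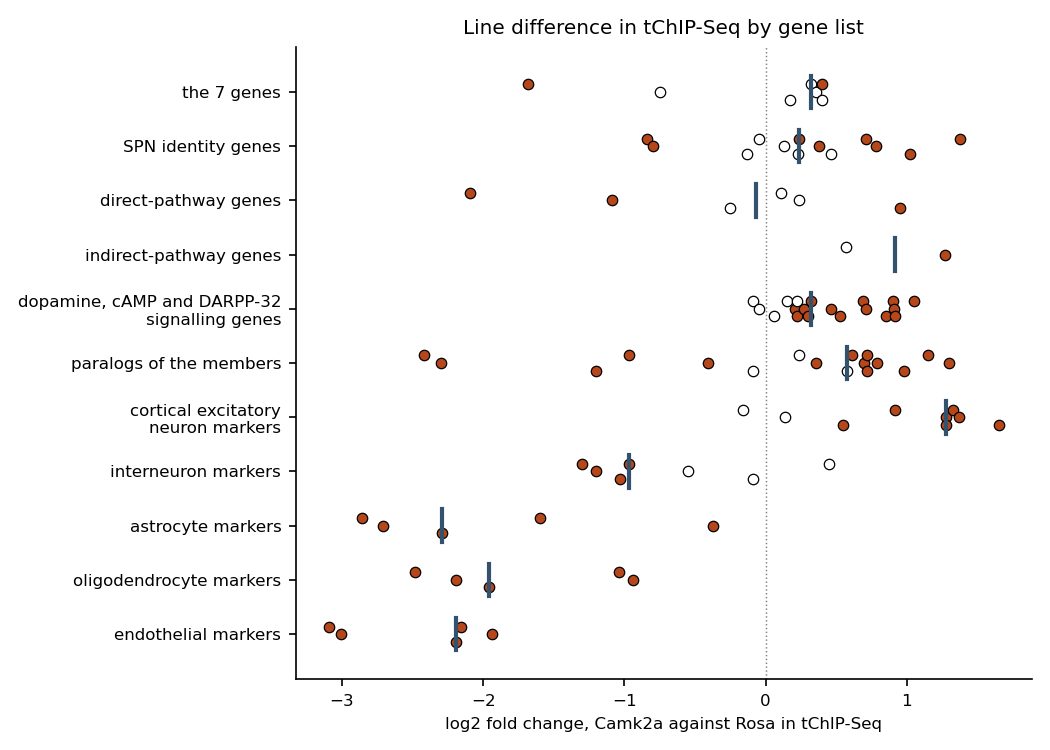
Log2 fold change of the Camk2a against the Rosa line in tChIP-Seq (horizontal axis) for the 7 genes and for each gene with a region in 5 related lists and 5 lists of cell type markers (vertical axis), where filled points have an edgeR adjusted p under 0.01 and bars are list medians. The medians run from 1.28 for cortical excitatory neuron markers to -2.29 for astrocyte markers, and the 7 genes have a median of 0.32, the value of Tac1.

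Related genes were read from lists of general knowledge, again in tChIP-Seq between the lines. In this comparison 17.0% of all regions were called higher and 14.6% lower, the background of every list count below. Of 15 identity genes of striatal projection neurons, 13 had a region, of which 6 rose, 2 fell and 5 were not called, with a median log2 fold change of 0.24. Arpp21, a cAMP-regulated phosphoprotein whose region also holds the TSS of 2900079G21Rik, rose by a log2 fold change of 1.38, Bcl11b (Ctip2), a transcription factor also used by deep-layer cortical neurons, by 1.02, and Scn4b, a sodium channel beta subunit, by 0.78. Rasgrp2, an exchange factor of Rap1, had -0.84 and Zfp503 had -0.80. In single ChIP-Seq Rasgrp2 had 0.02, while Zfp503 was called lower there too (-0.27, edgeR adjusted p = 6.18e-04). The DESeq2 Wald test called 0 genes of this list lower in single ChIP-Seq. The interaction of Zfp503 was -0.54 (edgeR adjusted p = 2.42e-06). Meis2 and Six3 had no region.

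Of the 6 direct-pathway genes, 1 rose, 2 fell and 3 were not called. Chrm4, the muscarinic M4 receptor, rose from 85.0 ± 4.53 to 164 ± 13.1 CPM (SD, n = 3; log2 fold change 0.95), while Ebf1, a transcription factor of direct-pathway neurons and of vascular cells, had -2.09, from 57.2 ± 1.06 to 13.4 ± 1.85 CPM. Eya1, a transcriptional coactivator, had -1.09. Pdyn, the dynorphin precursor gene, had 0.24 and was not called. Of 4 indirect-pathway genes 2 had a region, and Gpr6, an orphan receptor of indirect-pathway neurons, rose from 23.3 ± 0.858 to 55.9 ± 0.654 CPM (log2 fold change 1.27, adjusted p = 2.59e-13), in the opposite direction to Adora2a. Penk, the enkephalin precursor gene, whose region also holds the TSS of A830012C17Rik, had 0.57 (adjusted p = 0.0137) and was called without the first Camk2a tChIP-Seq library (adjusted p = 0.00249).

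The signalling genes downstream of the receptors moved mostly upward. Of 20 genes of dopamine, cAMP and DARPP-32 signalling, 19 had a region. Of these 14 rose, against 17.0% of all regions, and 5 were not called, with a median of 0.32. None was called lower, at an unadjusted p under 0.05 as well as by DESeq2, which called 10 higher. Ptpn5 (STEP, a tyrosine phosphatase) had the largest log2 fold change, 1.05, followed by Gnal, the alpha subunit that works with Gng7 in striatum, at 0.92, and Cdk5r1, the activator of the kinase that phosphorylates DARPP-32, at 0.91. Pde10a had 0.85 and Adcy5, the main striatal adenylyl cyclase, had 0.32. Rgs7bp, which anchors Rgs9 and its relatives at the membrane, had 0.71, and Gnb5, their partner, had no region. Gnas, Prkaca and Gnai1 were called higher at log2 fold changes of 0.21, 0.22 and 0.27, but these calls were lost under 6, 9 and 6 of 13 alternatives, and Tacr1, the receptor of substance P, was called at 0.90 and lost its call in DESeq2 (adjusted p = 0.112), without the first Rosa tChIP-Seq library (0.0703) and without the third Camk2a one (0.0121). Tacr1 was also called higher between the lines in single ChIP-Seq (log2 fold change 0.87, edgeR adjusted p = 0.00496), and its interaction was 0.02 (95% interval -0.73 to 0.77). In single ChIP-Seq the DESeq2 Wald test called 0 of this list higher between the lines. Against single ChIP-Seq of the same line, 15 of the 19 regions were lower in Rosa tChIP-Seq, against 22.5% of all regions. There 1 was higher, against 24.7% of all regions, and the median was -0.39. In Camk2a tChIP-Seq, 2 were lower, against 22.6% of all regions, and 6 higher, against 25.3% (median 0.07).

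Relatives of the 7 genes did not all follow them. Of 23 paralogs 17 had a region, and 9 rose, 5 fell and 3 were not called, with a median of 0.58. Among the adenosine receptors, Adora1 (the A1 type) rose from 118 ± 8.63 to 194 ± 4.57 CPM (log2 fold change 0.72, adjusted p = 1.41e-15) and Adora2b (the A2b type) fell from 75.2 ± 3.76 to 38.3 ± 2.28 CPM (log2 fold change -0.97, adjusted p = 1.57e-12), the direction of Adora2a. Of the dopamine receptors, Drd5, the other D1-like gene, rose (log2 fold change 1.15, adjusted p = 6.79e-05), Drd4 had 0.58 (adjusted p = 0.0437) and Drd3 had no region.

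Of the relatives of Rgs9, Rgs6 and Rgs7 rose, by log2 fold changes of 0.72 and 0.70, and Rgs11 had 0.24 (adjusted p = 0.136). G protein gamma genes went both ways. Gng13 (1.30), Gng2 (0.98), Gng3 (0.79) and Gng4 (0.36) were called higher, Gng11 (-2.42), Gngt2 (-2.30), Gng5 (-1.20) and Gng12 (-0.41) lower, and Gng10 (-0.09) was not called. The call of Gng4 was lost under 7 of 13 alternatives, and the regions of Rgs6, Gng3, Gng5, Gng12 and Gngt2 also hold a TSS of another gene. Ppp1r1a, which encodes another inhibitor of protein phosphatase 1, rose by 0.61.

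Markers of the cell types in cortex also differed between the lines. In tChIP-Seq, 7 of the 9 excitatory neuron markers with a region were higher in the Camk2a line, and their summed level was 682 to 741 CPM in the Rosa libraries and 1310 to 1350 CPM in the Camk2a libraries. All 5 astrocyte, all 5 oligodendrocyte and all 5 endothelial markers with a region were lower, their sums going from 344 to 400, from 194 to 208 and from 196 to 199 CPM in Rosa tChIP-Seq to 157 to 171, 65.0 to 68.9 and 36.8 to 46.4 CPM in Camk2a tChIP-Seq. Of 7 interneuron markers with a region 4 were lower, and their sum went from 159 to 184 CPM in Rosa libraries to 101 to 109 CPM in Camk2a libraries. None of the marker regions was at 0 in a group mean, and no microglia marker of the 6 listed had a region. In single ChIP-Seq the summed levels of the excitatory, interneuron, astrocyte and endothelial lists overlapped between the lines, whereas the oligodendrocyte sum was 235 to 238 CPM in the Rosa line and 202 to 210 CPM in the Camk2a line. Olig1 (log2 fold change -0.33, edgeR adjusted p = 0.00118) and Olig2 (-0.24, adjusted p = 0.00932) were called lower there. The DESeq2 Wald test called 0 oligodendrocyte markers lower in single ChIP-Seq. The part of cell composition in the values of the 7 genes was not tested.

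The genes whose levels ran most like each of the 7 across the 12 libraries were found by Pearson's r of log2(CPM + 1), over 13129 or 13130 TSS regions of other genes with a mean of at least 5 CPM. Since the libraries form 4 groups, r mainly describes the order of the groups, and no p is given. Adora2a ran closest to Itga5, an integrin subunit gene (r = 0.974), and Aif1l (0.971). Kremen2 was among the closest to Drd2 (0.977), and Ppp1r1b ran closest to Pcdhgc5, a clustered protocadherin gene (0.964), and the potassium channel gene Kcns1 (0.956). For Drd1a they were Birc5, the survivin gene (0.957), and Ano5 (0.924), for Tac1 the region shared by 9330136K24Rik and Zfp52 (0.917) and Rab3d (0.882), for Rgs9 Gm16702 (0.909) and Gipc2 (0.904), and for Gng7 Rpp21 (0.917) and Zfp60 (0.914). With Spearman's rho only Birc5, Kcns1 and the region of 9330136K24Rik and Zfp52 stayed among the first 2, so most of these names depend on the measure.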

How the data were processed

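H3K4me3 single ChIP-Seq and tChIP-Seq libraries of mouse cerebral cortex (12 libraries in 4 groups) were analysed, and the 12 input and FLAG libraries of the series were not used here. The authors removed reads mapping to repeats with Bowtie2 2.1.0, mapped the rest to mm9 with Bowtie 1.0.0, removed duplicates with samtools, kept peaks that MACS called reproducibly in triplicates and counted reads per peak with bedtools 2.17.0 (versions per the labels). The deposited values are counts per region, whole numbers without normalization, on a list of 17993 regions shared by all libraries; how the list was merged is not given in the sources used here.

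A TSS was the 5′ end of a GENCODE M1 transcript on mm9. Counts were fitted in edgeR 4.0.16 under R 4.3.3 (TMM, glmQLFit and glmQLFTest, no filter, Benjamini-Hochberg over all regions, called at an adjusted p under 0.01), which replaces the DESeq package of the authors at their threshold. At that threshold these fits called more regions than the paper reported, in both comparisons that follow. Between the lines in tChIP-Seq they called 3062 regions higher and 2620 lower. For tChIP-Seq against single ChIP-Seq in the Rosa line they called 4439 higher and 4046 lower. The background shares given above are those of these fits. Each comparison of 2 groups used its own 6 libraries, the interaction all 12. SE was the size of the log2 fold change over the square root of F, and intervals are 95% intervals from that SE. Levels are CPM with TMM factors over the 12 libraries. The fits were tested on simulated data before use. The named genes were the 7 genes, in each list up to 3 called regions per direction, taken by size of log2 fold change, all Drd, Adora, Rgs and Gng relatives with a region, and for likeness the 2 regions of highest r. Other genes named were chosen after their values were seen. Some items that this rule names are not reported here. The members and lists were chosen with earlier results of these data known.

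Alternatives were scaling by DESeq2 size factors or by library totals, DESeq2 1.42.0 with its Wald test, at least 10 counts per library, dropping the lowest 40% of regions by summed count, adjusted p under 0.05 or 0.001, 1 fit of all 12 libraries, thinning of single ChIP-Seq to tChIP-Seq totals, a replicate block, a TSS within 1000 bp of the region, and leaving out each library. For list genes and neighbouring regions they were added after seeing the data.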

Additional observations from a re-analysis of the deposited data

Results flagged for a closer look

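The Adora2a region was singled out because its line difference changed with the kind of ChIP-Seq by a direct test: the interaction over 12 libraries was -1.87 on the log2 scale (SE 0.276, edgeR adjusted p = 9.36e-10). The Camk2a line was lower in 3 of 3 libraries in tChIP-Seq, and the lines overlapped in single ChIP-Seq. Under 18 alternatives the interaction stayed between -2.06 and -1.73, with adjusted p between 1.46e-10 and 1.46e-06.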

How the results depend on the processing

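Of the 7 regions, the number called between the lines in tChIP-Seq was 2, and it was 1 when the lowest 40% of regions by summed count were dropped, a filter that keeps only Ppp1r1b, and 4 at a threshold of 0.05. With each library left out in turn it was 1 to 3. In single ChIP-Seq it was 0, and 1 at a threshold of 0.05. For the interaction it was 1, with 0 under the filter on the lowest 40%, 2 at a threshold of 0.05 and 1 to 2 with a library left out. For tChIP-Seq against single ChIP-Seq it was 3 in the Rosa line. Under the filter it was 1 there, which was Ppp1r1b and none of those 3, since the filter drops them. In the Camk2a line it was 5, with 1 under the filter (Ppp1r1b), 2 by DESeq2 and 3 at a threshold of 0.001. No called value of the 7 regions changed sign under any of these alternatives. Of the list counts in tChIP-Seq between the lines, those of lower markers fell under the same filter from 5 to 3 (astrocyte), from 5 to 3 (oligodendrocyte), from 5 to 1 (endothelial) and from 4 to 0 (interneuron), because it drops weak regions, and a minimum of 10 counts gave 3 astrocyte and 1 endothelial. Lower paralogs ranged from 3 to 5, and higher indirect-pathway genes were 0 under that filter and 2 without the first Camk2a tChIP-Seq library. Taking a TSS within 1000 bp of the region gave the same 7 regions.

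With library totals alone in place of TMM, the share of higher among all calls moved from 53.9% to 43.7% for the lines in tChIP-Seq, from 43.3% to 77.3% in single ChIP-Seq, from 50.9% to 38.9% for the interaction and from 52.3% to 67.7% for tChIP-Seq in the Rosa line, and the median log2 fold change of all regions moved by at most 0.10. The counts of regions called with a replicate block were 2, 0, 1, 3 and 5 in the 5 comparisons, as without it. Same-numbered libraries deviated together only weakly. The highest correlation was 0.0548, for the first Rosa single and tChIP-Seq libraries, against at most -0.0227 with the other numbers. Values this small cannot tell whether same-numbered libraries share a lysate, and the replicate numbers were not taken as pairs. Tac1 had the fewest reads of the 7 regions, 3 to 26 a library.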
